A study of Mus musculus with 6 samples.

Results

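The urea cycle genes of mouse liver were examined in 2-month-old Pcyt2+/- mice and wild type mice of the same age, both on a C57BL6 background. The genes were Nags, Cps1, Otc, Ass1, Asl, Arg1 and the mitochondrial carriers Slc25a15 and Slc25a13, chosen by name for their place in the cycle. A gene was measured where a probe set carried its symbol alone, and the probe set with the highest mean over the 6 arrays would have stood for a gene with several. This gave 7 of the 8 genes, each with 1 probe set, out of 18820 genes in all. Ass1, which encodes argininosuccinate synthase, had 2 probe sets that also carry the symbol Gm5424, so it was not analysed here.

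The deposited values were log2 expression from Affymetrix arrays, made from total RNA of snap-frozen liver. There were 4 arrays from Pcyt2+/- livers, numbered 1 to 4, and 2 from wild type livers, numbered 3 and 4, each from a mouse of its own. The group is named Pcyt2+/- here after its genotype label, although its titles read knock-out. The sources used here give neither sex nor feeding state, nor how the allele was made. Values ran from 3.96 to 13.02 with a median of 4.40 on every array, and 792 genes (4.21%) had a mean above 5. Most genes thus lay in a narrow band of low signal in which log2 differences are small. Of the hepatocyte markers 11 of 11 were measured, all with a mean above 5. Their signal, summed on the linear scale, had a log2 of 14.36 to 14.47 in Pcyt2+/- and 14.39 to 14.50 in wild type liver. Of the markers of macrophages, endothelial cells, stellate cells, bile duct cells, lymphocytes, neutrophils and red cells (for the last, 1 of 6 was measured), 1 gene, the stellate and fibroblast marker Dcn, had a mean above 5.

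The urea cycle turns ammonia, which is toxic to the brain, into urea for excretion. It starts in the mitochondria of hepatocytes, where carbamoyl phosphate is made from ammonia and bicarbonate and is joined to ornithine to give citrulline. Citrulline leaves for the cytosol, takes up nitrogen from aspartate and is processed to arginine, whose cleavage frees urea and returns ornithine. The complete cycle runs mainly in periportal hepatocytes, those nearest the incoming blood, and its enzymes are known to respond to dietary protein, glucagon and glucocorticoids.

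Of the 8 genes, 5 had promoter windows in the RefSeq table of GRCm38.p6, each of 300 bases from 250 before to 50 after an annotated start, with 2 windows for Slc25a15. Cps1, Asl and Arg1 had none. The windows were searched on both strands for CCAAT (the CCAAT box), TATAAA (the TATA box), AGGTCA (a nuclear receptor hexamer), TTGCNNAA (a C/EBP core) and TGTTCT (a glucocorticoid receptor hexamer). A match was found in 2 of the 6 windows, and both are shown, in place of Arg1 and Cps1, which had been planned. The window of Slc25a13 lies at chr6:6217124-6217423 on the minus strand and that of Nags at chr11:102145263-102145562 on the plus strand. Capitals mark the match, CCAAT in the first and the reverse complement of AGGTCA in the second.
Slc25a13: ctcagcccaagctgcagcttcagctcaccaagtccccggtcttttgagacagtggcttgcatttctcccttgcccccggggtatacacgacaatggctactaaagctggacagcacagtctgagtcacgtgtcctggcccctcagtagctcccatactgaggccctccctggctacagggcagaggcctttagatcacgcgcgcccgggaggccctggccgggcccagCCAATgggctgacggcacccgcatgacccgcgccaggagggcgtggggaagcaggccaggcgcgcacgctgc
Nags: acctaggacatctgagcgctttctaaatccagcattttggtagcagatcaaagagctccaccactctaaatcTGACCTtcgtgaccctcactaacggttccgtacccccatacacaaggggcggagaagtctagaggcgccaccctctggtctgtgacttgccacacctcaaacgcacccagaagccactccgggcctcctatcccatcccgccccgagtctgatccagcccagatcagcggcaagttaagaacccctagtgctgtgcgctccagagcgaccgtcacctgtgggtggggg
CCAAT occurs in 37.4% and AGGTCA in 16.3% of the 32851 windows of the table, TATAAA in 13.6%, TTGCNNAA in 10.8% and TGTTCT in 19.0%. The matches are descriptions of these letters and not of binding. By base composition the windows ran from 44.3% G and C for Otc to 79.0% for the second window of Slc25a15, against a median of 52.7% over all windows.

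Pcyt2, which makes CDP-ethanolamine for phosphatidylethanolamine synthesis, is the gene the genotype names. Its log2 signal was 4.638, 4.657, 4.669 and 4.604 on the 4 Pcyt2+/- arrays and 4.887 and 4.796 on the wild type arrays. Every Pcyt2+/- value was below both wild type values, with a difference of -0.20 ± 0.028 (SE) that did not pass over all genes (limma adjusted p = 0.264), a wild type signal 1.15 times that of Pcyt2+/-. Each array's median signal, taken as the floor of the array, was also subtracted on the linear scale. The difference was then -0.97, a wild type signal 1.96 times that of Pcyt2+/- (limma adjusted p = 0.0671). Such subtraction widens log2 differences of genes near the floor, so this size depends on the floor taken.

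Along the cycle the measured differences from wild type varied in size from step to step, and whether steps differ from each other was not tested. Arg1, the last enzyme, and Cps1, the entry enzyme, had the largest differences, at -0.79 and -0.56 on the log2 scale, or a wild type signal 1.73 and 1.47 times that of Pcyt2+/-. Asl and both carriers had smaller negative differences, from -0.15 to -0.09, with overlapping groups for Slc25a15. Nags and Otc had overlapping groups and differences near 0. No difference of the 7 genes passed the test over all genes, where limma called 0 of 18820 at an adjusted p under 0.05 (0.0%) and 998 at an unadjusted p under 0.05 (5.30%).

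Nags makes N-acetylglutamate, without which CPS1 is inactive. Its log2 values were 4.592, 4.555, 4.575 and 4.552 in Pcyt2+/- replicates 1 to 4 and 4.550 and 4.605 in wild type replicates 3 and 4. The wild type arrays held both the lowest and the highest value, so the groups overlapped fully. The difference was -0.0093 with a 95% interval of -0.055 to 0.036 (limma adjusted p = 0.996). It was 0.019 without wild type replicate 4 and 0.026 with the arrays centred on their bright genes. Nags lies in the low band of the array, where the signal limits what can be seen.

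Cps1 encodes carbamoyl phosphate synthetase, the entry step and one of the most abundant proteins of liver mitochondria. Its log2 values were 8.689, 8.689, 8.557 and 8.414 in the Pcyt2+/- livers against 8.953 and 9.332 in the wild type livers. All Pcyt2+/- values lay below both wild type values, with a gap of 0.26 between the nearest arrays of the groups. The means were 8.59 ± 0.13 (SD, n = 4) and 9.14 ± 0.27 (SD, n = 2), and the difference was -0.56 with a 95% interval of -0.83 to -0.28 (limma adjusted p = 0.529). The wild type livers themselves differed by 0.38, and without wild type replicate 4 the difference was -0.37. Cps1 had a bright signal, and its difference was -0.58 with the floor subtracted.

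Otc encodes ornithine transcarbamylase, which joins carbamoyl phosphate to ornithine. Its log2 signal was 5.979, 5.959, 5.718 and 5.893 in Pcyt2+/- and 5.784 and 5.980 in wild type liver. The lowest array was Pcyt2+/- replicate 3, the highest was wild type replicate 4, and the other 4 arrays lay between with the groups mixed. The mean was 5.89 ± 0.12 (SD, n = 4) in Pcyt2+/- against 5.88 ± 0.14 (SD, n = 2), which differ by 0.0049 with a 95% interval of -0.19 to 0.20 (limma adjusted p = 0.997). The interval leaves room for a change of that size in either direction, and the sign turned in 4 of 16 other settings. Otc had a mean of 5.89 over all arrays, above the low band.

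Slc25a15 brings ornithine into the mitochondrion in exchange for citrulline. Its log2 values were 4.857, 4.832, 4.802 and 4.844 in Pcyt2+/- against 4.852 and 4.996 in wild type liver. Pcyt2+/- replicate 1 lay just above wild type replicate 3, so the groups overlapped. The difference was -0.09 ± 0.038 (SE; limma adjusted p = 0.936) and came to -0.018 without wild type replicate 4.

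Slc25a13, also called citrin, exports aspartate from liver mitochondria to the cytosol and so feeds the second nitrogen of urea. Its log2 values were 4.752, 4.746, 4.718 and 4.726 in Pcyt2+/- and 4.884 and 4.779 in wild type liver. The groups did not overlap, by a margin of 0.027, and the difference was -0.096 ± 0.028 (SE; limma adjusted p = 0.784). Here wild type replicate 3 was the high array, and without it the difference was -0.044. Slc25a12, a related carrier best known from brain and muscle, had a difference of -0.030 (limma adjusted p = 0.945), which was 0.0057 with the arrays centred on their bright genes.

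Asl splits argininosuccinate into arginine and fumarate. Its log2 values were 5.006, 4.924, 4.891 and 4.895 in Pcyt2+/- and 5.029 and 5.133 in wild type liver. The groups did not overlap, with Pcyt2+/- replicate 1 within 0.023 of wild type replicate 3. The mean was 4.93 ± 0.054 (SD, n = 4) in Pcyt2+/- against 5.08 ± 0.073 (SD, n = 2), and the difference was -0.15 with a 95% interval of -0.25 to -0.057 (limma adjusted p = 0.696). Without wild type replicate 4 it was -0.10.

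Arg1 encodes the liver arginase, which cleaves arginine to urea and ornithine. Its log2 values were 5.334, 5.378, 5.345 and 5.271 in the Pcyt2+/- livers, a spread of 0.11, and 5.960 and 6.280 in the wild type livers. The groups were separated by 0.58, the widest gap among the 7 genes. The mean was 5.33 ± 0.044 (SD, n = 4) in Pcyt2+/- against 6.12 ± 0.23 (SD, n = 2), with a difference of -0.79 and a 95% interval of -0.98 to -0.60. By unadjusted p Arg1 ranked 3 of 18820 genes, with an adjusted p of 0.13 by limma. It passed in 5 of 16 other settings, with an adjusted p of 0.016 under a trended and robust variance prior, 0.0366 among genes with a mean above 5, 0.0248 with the floor subtracted and 0.00251 without wild type replicate 3. The fifth was centring the arrays on their bright genes, where the p-values rest on 1 spread shared by all genes. Over the 16 settings its adjusted p otherwise reached 0.964, with no moderation of the variance. In the two-sided exact permutation test Arg1, Cps1, Asl and Slc25a13 each had p = 0.0667, the lowest possible over the 15 splits of these arrays, and 0.05 is out of reach for this design.

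**Figure D1:**
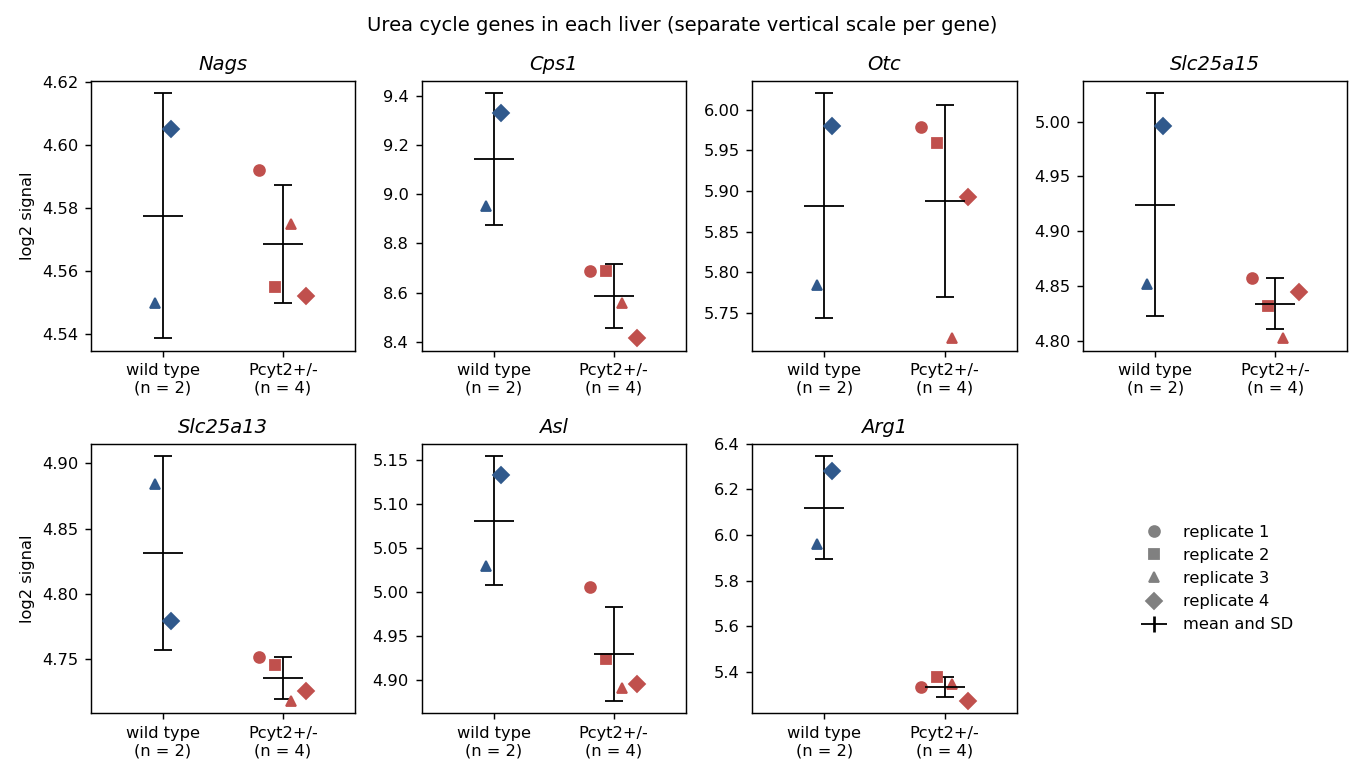
Log2 signal (vertical axis, a separate scale for each gene) of the 7 measured urea cycle genes in wild type (n = 2) and Pcyt2+/- (n = 4) liver. Each symbol is 1 array, shaped by replicate number, and the bars are the mean and SD. The groups of Arg1 are 0.58 apart and those of Cps1 0.26, while those of Otc, Nags and Slc25a15 overlap.

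Differences were larger for 4 members when the floor was subtracted. Taking a like amount from every array widens any log2 difference of a gene near the floor, so this widening is built into the setting. Its size depends on the floor taken, here the array's median. The difference of Arg1 went from -0.79 to -1.33 with a wild type signal 2.52 times that of Pcyt2+/-. Asl went from -0.15 to -0.45, Slc25a13 from -0.096 to -0.41 and Slc25a15 from -0.09 to -0.31. Cps1 and Otc, at -0.58 and 0.007, stayed near their deposited values. Only genes with a mean above 4.6 entered this setting (3248 genes), which left out Nags. Of the 6 members in it, Arg1 passed (limma adjusted p = 0.0248), and the others had adjusted p from 0.326 for Cps1 to 0.994 for Otc.

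Counted together, 6 of the 7 genes had a lower mean in Pcyt2+/-, against 51.7% of all genes and 62.2% of the 792 genes with a mean above 5. The groups did not overlap, on the lower side, for 4 of the 7 (Cps1, Asl, Arg1 and Slc25a13), against 7.17% of all genes and 15.3% of the brighter ones. An unadjusted limma p under 0.05 on the lower side was found for 5, those 4 and Slc25a15, against 3.44% and 14.6%. The median difference of the 7 was -0.096, beside -0.00073 over all genes and -0.020 over the brighter ones. The genes were proposed with earlier results of these data known, so nothing is read from these shares. RNA from whole liver cannot tell fewer cells of a type from less RNA per cell.

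The wild type arrays were not alike for these genes. Wild type replicate 4 had the highest value of the 6 arrays for 6 of the 7 genes, all except Slc25a13, for which replicate 3 was highest. Relative to the wild type mean, the median member stood at 0.072 on wild type replicate 4 and at -0.072 on wild type replicate 3. The Pcyt2+/- arrays stood at -0.075, -0.092, -0.16 and -0.11 for replicates 1 to 4. The median of wild type replicate 3, itself part of the reference, was close to that of Pcyt2+/- replicate 1, but single genes differed between these arrays. On wild type replicate 3, Arg1 had 5.960 against 5.334 and Cps1 8.953 against 8.689, while Otc was lower, at 5.784 against 5.979. Pcyt2+/- replicate 3 had the lowest value for 4 genes (Otc, Asl and both carriers). Without wild type replicate 4 the negative side was held by 5 of 7 genes, and 3 of 7 had an unadjusted p under 0.05 on the lower side.

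**Figure D2:**
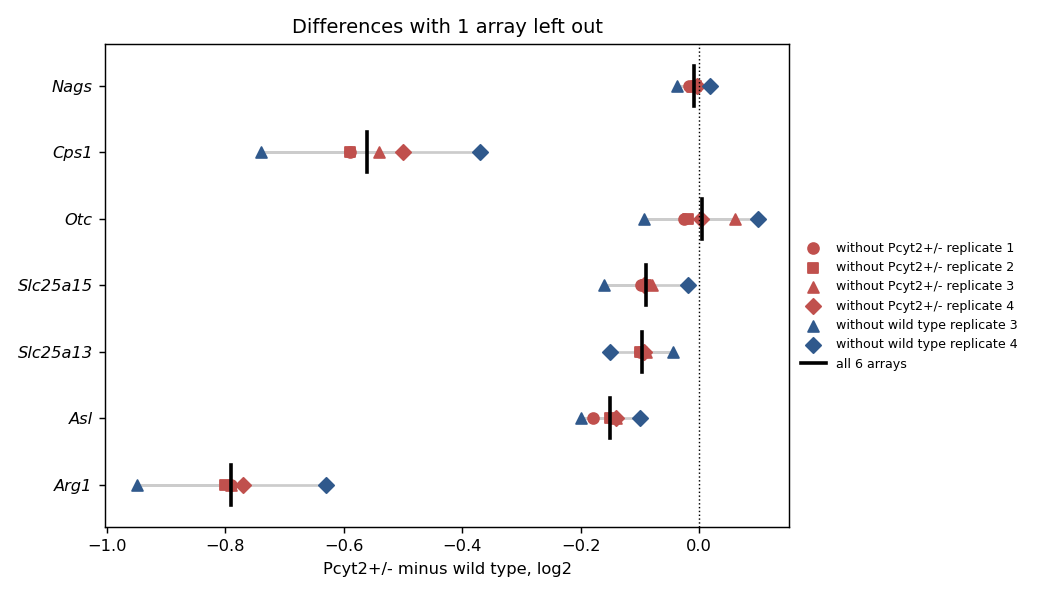
Differences (Pcyt2+/- minus wild type, log2, horizontal axis) of the 7 genes with each array left out in turn. Red symbols leave out a Pcyt2+/- array and blue symbols a wild type array, and the black bar is the value over 6 arrays. Arg1 ran from -0.95 to -0.63 and Cps1 from -0.74 to -0.37, with both ends set by the wild type arrays.

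Genes listed around the cycle's supply of nitrogen and carbon held several lower values. The list also holds genes with other roles, such as Glul, Sirt5 and Fh1. Of its 24 genes 21 were measured. By limma over all genes, 0 passed in either direction, the unadjusted p was under 0.05 for 7 on the lower and 1 on the higher side, and the median difference was -0.048. The lower side held 3.44% of all genes and 14.6% of those with a mean above 5, to which 10 of the 21 belong. Got1, the cytosolic aspartate aminotransferase, had 4.92, 4.96, 4.82 and 4.70 in Pcyt2+/- against 5.28 and 5.76 in wild type liver. Its groups did not overlap, and the difference was -0.67 ± 0.13 (SE; limma adjusted p = 0.511), with -0.43 without wild type replicate 4 and -1.69 with the floor subtracted. Got2, the mitochondrial form and a direct source of aspartate, was the gene on the other side, with 8.40, 8.39, 8.36 and 8.42 against 8.34 and 8.35, a difference of 0.044 ± 0.017 (limma adjusted p = 0.913). Got2 has 3 probe sets, and their mean gave 0.0044, while quantile normalization gave 0.15. Glud1, glutamate dehydrogenase, which releases ammonia from glutamate, had -0.12 and Gpt2, the mitochondrial alanine aminotransferase, -0.22 (-0.12 without wild type replicate 4). With the floor subtracted Glud1 had -0.27 and Gpt2 -0.62. Slc38a4, an amino acid importer of the hepatocyte surface, had -0.36 (-0.18 after quantile normalization) and Slc25a22, a mitochondrial glutamate carrier, -0.048. Fh1, fumarate hydratase, which takes up the fumarate from ASL, had -0.10 (-0.059 without wild type replicate 4, -0.51 with the floor subtracted). Sirt5, which removes succinyl and related groups from CPS1, had 0.0044 and changed sign without Pcyt2+/- replicate 4 or wild type replicate 4. Glul, the glutamine synthetase of pericentral cells, had -0.13 with a 95% interval of -0.50 to 0.23, and ran from -0.26 without Pcyt2+/- replicate 1 to -0.072 without replicate 4. The adjusted p of these genes ran from 0.511 to 0.996 by limma.

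Genes that use arginine and ornithine divided evenly, with 11 of 22 measured genes lower and 11 higher by mean and a median of -0.0018. By limma 0 passed over all genes, and 3 genes (0 on the higher side) had a lower mean with an unadjusted p under 0.05. That side held 3.44% of all genes and 14.6% of those with a mean above 5, to which 5 of the 22 belong. Slc7a2, a cationic amino acid transporter that takes up arginine, had 5.19, 5.20, 5.11 and 5.17 in Pcyt2+/- against 5.31 and 5.51 in wild type liver, a difference of -0.24 (-0.14 without wild type replicate 4). Oat, the ornithine aminotransferase, had 5.86, 5.52, 5.76 and 5.67 against 6.06 on both wild type arrays, a difference of -0.36. The groups of both genes did not overlap, and the limma adjusted p was 0.593 and 0.626. Prodh, proline dehydrogenase, had -0.057 (-0.029 without wild type replicate 4). With the floor subtracted Slc7a2 had -0.52, Oat -0.57 and Prodh -0.26. The mitochondrial arginase Arg2 had only probe sets shared with another symbol and was not analysed here.

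In amino acid breakdown, 17 of 24 measured genes had a lower mean, beside 51.7% of all genes and 62.2% of those with a mean above 5, to which 13 of the 24 belong. By limma 0 passed over all genes, and 7 had a lower mean with an unadjusted p under 0.05 (3.44% and 14.6% in the same order), 0 a higher one. The median was -0.017. Tat, the tyrosine aminotransferase, had -1.13 (limma adjusted p = 0.219). It passed in 2 of 16 other settings, under a trended and robust variance prior (limma adjusted p = 0.0418) and with the arrays centred on their bright genes. Tdo2, tryptophan dioxygenase, had -0.53 (-0.14 without wild type replicate 4, -0.92 without replicate 3), Kmo, kynurenine monooxygenase, -0.45, Aass, which starts lysine breakdown, -0.23 (-0.14 without wild type replicate 4), and Cth, cystathionine gamma-lyase, -0.23. Bckdha, of the branched-chain keto acid dehydrogenase, had -0.093. With the floor subtracted, which by itself widens the differences of dim genes, the values were -1.11 for Kmo, -0.62 for Aass, -0.57 for Cth and -0.39 for Bckdha. Cth passed in 2 of 16 other settings, without Pcyt2+/- replicate 1 (limma adjusted p = 0.0159) and with centring.

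Of 16 measured regulators known to act on urea cycle genes, 11 had a lower mean, beside 51.7% of all genes and 62.2% of the brighter ones, with a median of -0.022. By limma 0 passed over all genes, and the unadjusted p was under 0.05 for 3 with a lower mean and for 1 with a higher mean. The lower side held 3.44% of all genes and 14.6% of the brighter ones, to which 3 of the 16 belong. Cebpa, a transcription factor of hepatocyte metabolic genes, had -0.082, Klf15, a regulator of amino acid breakdown, -0.077 (-0.049 without wild type replicate 4), Ppargc1a, a fasting-induced coactivator, -0.033 and Foxo1, an insulin-inhibited factor, 0.034. The value of Ppargc1a was 0.0026 with the arrays centred on their bright genes and -0.011 as the mean of its rows. With the floor subtracted Klf15 had -0.26 and Cebpa -0.25. Hnf4a, the nuclear receptor that maintains hepatocyte gene expression, had -0.25 with a 95% interval of -0.59 to 0.094, with 0.038 without wild type replicate 4 and -0.53 without replicate 3. Gcgr, the glucagon receptor, had -0.066 (-0.041 without Pcyt2+/- replicate 3). Cebpb, which acts in fasting and the acute phase, had -0.011, a value of 0.00098 after quantile normalization and of 0 without wild type replicate 4.

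**Figure D3:**
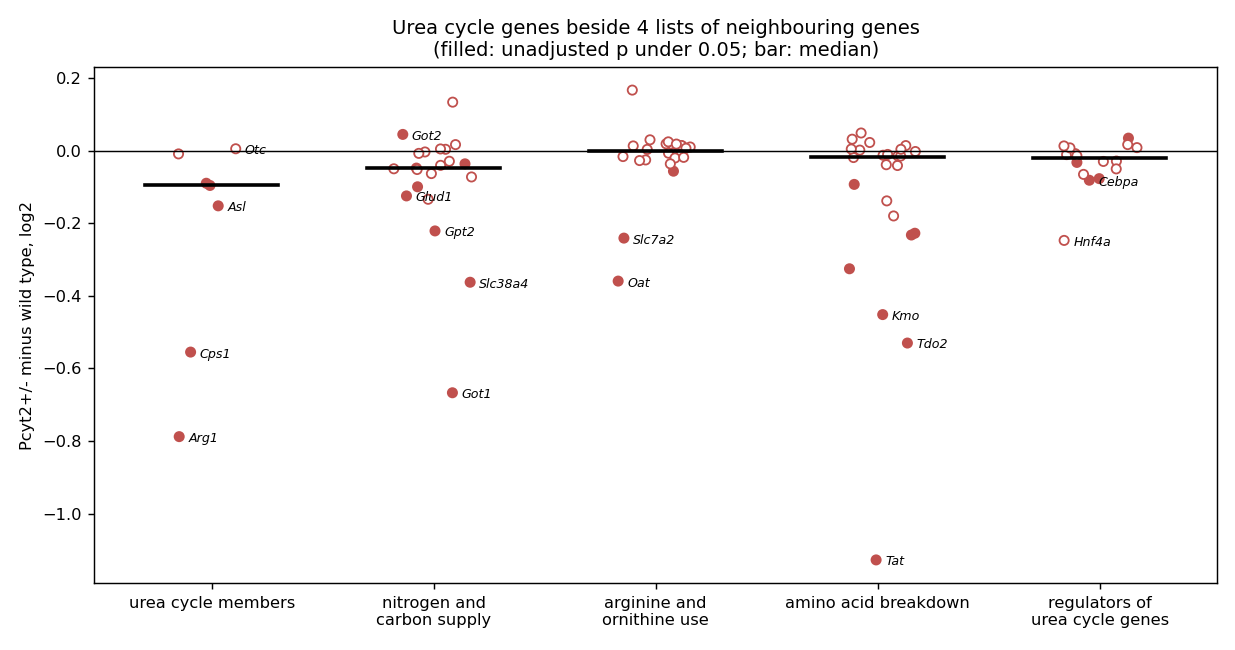
Log2 difference of Pcyt2+/- from wild type (vertical axis) for the measured genes of 5 lists. Each circle is a gene, filled where the unadjusted limma p was under 0.05, and the bar is the list's median. The urea cycle genes have a median of -0.096, and those of nitrogen and carbon supply -0.048.

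Markers of hepatocyte position were set beside the cycle because its enzymes are periportal. Of 12 measured periportal markers 6 had a lower mean and 5 a higher one (median -0.025). Their signal, summed on the linear scale, had a log2 of 11.82 to 11.95 in Pcyt2+/- and 11.84 to 11.89 in wild type liver. The brightest marker weighs most in such a sum, with a log2 mean of 11.06 in this list and 11.09 in the pericentral one. Hsd17b13 (-0.14, and -0.76 with the floor subtracted) and Pigr (-0.050) were lower and Cyp2f2 (0.21) higher at an unadjusted p under 0.05. Of 17 pericentral markers 12 had a lower mean and 5 a higher one (median -0.033), with a summed signal of 11.40 to 11.57 against 11.49 to 11.64. Cyp2a5 (-0.47), Slc1a2 (-0.061) and Oat were lower at an unadjusted p under 0.05. A lower mean was found for 51.7% of all genes and 62.2% of those with a mean above 5, to which 7 markers of each list belong. A lower mean with an unadjusted limma p under 0.05 was found for 3.44% and 14.6% in the same order. Without wild type replicate 3 Cyp2a5 had -0.27 and Slc1a2 -0.019, and with the floor subtracted they had -0.94 and -0.27. The zonation markers other than Oat were named after their values were seen. By limma 0 markers of either list passed over all genes as deposited. With the arrays centred on their bright genes Cyp2f2, Cyp2a5 and Oat passed, with p-values that rest on 1 spread shared by all genes. The part of cell position in the urea cycle values was not tested.

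Genes with a pattern like that of Arg1 across the 6 arrays were sought among 789 other genes with a mean above 5. The closest by Pearson r were Atp5c1, of the ATP synthase (0.988), Got1 (0.972), Pgrmc1, a heme-binding membrane protein (0.969), Cyp4a31, a fatty acid omega-hydroxylase (0.956), and Slc7a2 (0.947). Pearson r ignores the size of a difference. The differences of these genes were -0.054, -0.67, -0.13, -1.15 and -0.24 in the same order, beside -0.79 for Arg1. Among the members, r with Arg1 was 0.958 for Cps1 and 0.117 for Otc. Against the mean profile of Cps1, Otc and Arg1, the closest were Got1 (0.996), Pgrmc1 (0.985), Slc7a2 (0.982), Atp5c1 (0.972) and Aass (0.970). Got1 and Aass had means of 4.85 and 4.97 in Pcyt2+/- against 5.52 and 5.2 in wild type liver. They cleared the filter at a mean of 5 only through the wild type arrays, so the filter had a part in their place here. These correlations describe 6 arrays that share the 2 groups and the same RNA.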

How the data were processed

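The authors deposited log2 expression, 1 value per probe set, made with RMA per the submitters' processing notes. For RMA's version and for the genome build, nothing was given in the sources used here. RMA evens out the arrays' overall distributions, so a change shared by most genes is not visible. Of 28996 probe sets, 21218 had 1 gene symbol in the platform annotation, and the highest row per gene gave 18820 genes. Promoters came from RefSeq (GRCm38.p6). The test was limma 3.58.1 under R 4.3.3: lmFit, then eBayes, on all 6 arrays without covariates, two-sided, Benjamini-Hochberg adjusted over all genes, with a threshold of 0.05. The fit was checked on simulated data with noise independent between genes and arrays, so the check does not cover shifts of whole arrays. Summaries were made in Python 3.11.15 (pandas 2.3.3, numpy 2.4.6) and figures in matplotlib 3.10.9. Array number limits the precision. The limma p-values weigh each difference against the spread between these mice, drawn toward a spread shared by all genes.

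The genes, lists, settings and naming rule were chosen with earlier results of these data known. The rule named all members, Pcyt2, up to 6 genes a list with an unadjusted p under 0.05, 16 fixed genes beside the cycle where measured, and the 5 closest genes per profile. Other settings were a filter on dim genes, the mean of a gene's rows, every row, quantile normalization, centring on bright genes, floor subtraction, a trended and robust prior, array weights, no moderation, each array left out in turn and a replicate block.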

Additional observations from a re-analysis of the deposited data

Results flagged for a closer look

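Of 39 genes looked at in the 4 Pcyt2+/- livers, 3 had 1 array set apart from the others by a gap that is large for their range, where chance gives about 1 in 20. None is a urea cycle gene. Slc38a4, the amino acid importer, had its lowest value of 7.01 in Pcyt2+/- replicate 3, with the others at 7.30 to 7.35. Klf15 had its highest value of 4.89 in replicate 4, with the others at 4.86. Cth had its highest value of 5.17 in replicate 1, with the others at or below 5.02.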

How the results depend on the processing

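Cps1, Arg1, Asl, Slc25a15 and Slc25a13 kept their negative sign in every setting that included them. The count of genes called over all genes, 0 as reported, was 3 among genes with a mean above 5, 3 with the floor subtracted, 9 with a trended and robust prior, 2 with the replicate block and 163 with the arrays centred on bright genes, and ran from 0 to 9 with 1 array left out, with 9 without wild type replicate 3. Centring moved each array's values for every gene alike, and the prior degrees of freedom became infinite. Arg1 and Cps1 passed with p-values that rest on 1 spread shared by all genes. Of the other named genes, Pcyt2, Got1, Gpt2, Slc38a4, Slc7a2, Oat, Tat, Cth, Kmo, Aass, Tdo2, Hnf4a, Cyp2f2 and Cyp2a5 passed likewise. Centring also moved the median of all genes to 0.035. Among genes with a mean above 5 (Cps1, Otc and Arg1), 2 members had a lower mean, 2 an unadjusted p under 0.05, and the median was -0.56, through fewer members. The median was -0.43 with the floor subtracted and ran from -0.16 (without wild type replicate 3) to -0.09 with 1 array left out. Members lower at an unadjusted p under 0.05 numbered 3 with centring and 3 (without wild type replicate 4) to 4 with 1 array left out. At an unadjusted p under 0.05, 648 genes were lower and 350 higher as deposited, 492 and 503 after quantile normalization, and 188 and 235 with centring. Signs turned for Nags (0.026), Ppargc1a (0.0026), Slc25a12 (0.0057) and Cebpb (0.024) with centring and for Cebpb (0.00098) with quantile normalization. With 1 array left out Nags ran from -0.037 to 0.019, Otc from -0.093 to 0.10, Sirt5 from -0.011 to 0.020 and Hnf4a from -0.53 to 0.038. Otc was -0.077 with the replicate block. The causes of turned signs were not tested. The groups share only the replicate numbers 3 and 4, whose deviations correlated at 0.147 and 0.072 over all genes, and the labels do not say that they mark a pairing. With 1 wild type array left out, the lone other one is taken to vary as the Pcyt2+/- group does.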
